A study of Mus musculus with 10 samples.

Results

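The 2 kinds of cochlear hair cell (HC), inner HCs (IHCs) and outer HCs (OHCs), were compared in bulk RNA-seq libraries of mature cells that were picked by hand for their fluorescence. The comparison was of 2 IHC libraries with 2 OHC libraries, chosen by the cell type and age in the labels from the 10 libraries of the series, and it covered all genes, of which 16891 were tested of 34590 listed. The IHCs came from mice with Pval-Cre, expressed from the parvalbumin locus, and the Cre-dependent red reporter Rosa26-CAG-loxP-stop-loxP-tdTomato, and their labels read m74 and m75. The OHCs (P22) were taken from the prestin-YFP knock-in, whose motor protein prestin carries a yellow tag, and their labels read m21 and f22, although the methods put both a day later. Neither group received tamoxifen or the Atoh1 transgene that other cells of the series carried. Libraries are named here by the numbers of these labels, which are ages in days after birth, so the IHCs came from the older mice. Age, genotype, reporter and the number of picked cells, which was larger for the IHC libraries, all went with the cell type, and their parts in a difference cannot be told apart. The methods also record weak tdTomato in OHCs of the IHC reporter mice. The labels do not give the number of animals behind a library. The study calls the pairs of libraries biological duplicates.

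IHCs are the receptors that report sound to the brain: each forms ribbon synapses, where a protein ribbon holds vesicles beside calcium channels, with afferent fibres of the auditory nerve. OHCs amplify the vibration of the organ of Corti by changing their length, which prestin (the product of Slc26a5) drives, and receive efferent fibres whose acetylcholine acts through the alpha9/alpha10 nicotinic receptor and a calcium-activated potassium channel. Both carry a hair bundle whose mechanotransduction channels open when the tip links between stereocilia are pulled. Supporting cells (SCs) surround both.

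The 4 libraries held 27301979 (IHC 74), 26513178 (IHC 75), 19483713 (OHC 21) and 21365585 (OHC 22) reads counted on genes, and all 10 libraries held between 15016129 and 40518766. Levels are CPM (read counts scaled to the size of the library) with TMM factors, a normalization that assumes most genes do not differ. A level of 3 counts corresponded to 0.102 CPM in IHCs and 0.195 CPM in OHCs, as the mean of both libraries, and is the floor used for bounds. Bounds and intervals here treat reads as independent counts and leave out the spread between libraries. Amplified reads carry no molecular identifiers, so even the counting error may be larger than they show. OHC library 21 stood apart from the other three: its TMM factor was 0.583, 14332 genes were detected, its 10 most abundant genes took 41.3% of the counts and 25.5% of its reads were not aligned. Spearman's rank correlation across the 23415 genes with a count was 0.868 between the IHC libraries, 0.829 between the OHC libraries and 0.768 to 0.810 between an IHC and an OHC library. These are descriptions across genes, which are not replicates. The sample records of the 4 libraries carried their own count files, whereas 4 of the 6 other records carried the file of another library, which was put right before all 10 were fitted together.

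Most cell type markers were at the levels the labels call for, with exceptions in both lists. These lists, like all others here, were chosen with earlier results of these data known. Counts of their members, here and below, are thus no independent check of the labels. All 10 OHC markers were higher in both OHC libraries than in both IHC libraries, with summed levels of 20473 and 17883 CPM in OHC libraries 21 and 22 and 471 and 299 CPM in IHC libraries 74 and 75. The 8 tested of 9 IHC markers were higher in both IHC libraries, with sums of 10995 and 10602 CPM against 603 and 582 CPM in OHCs. Bcl11b, of the OHC list, and Fgf8, of the IHC list, lay near or at 0 in all 4 libraries (0.0674 and 0.0344 CPM in IHCs and 0.0882 and 0.126 CPM in OHCs for Bcl11b, 0 and 0 CPM and 0.0882 and 0 CPM for Fgf8, which was not tested). Dnajc5b, of the IHC list, stood at 291 and 201 CPM in IHCs and at 152 and 0.0842 CPM in OHC libraries 21 and 22, so that OHC library 21 lay near the IHC libraries and OHC library 22 far below them. The 11 markers shared by both HC types summed to 4409 and 4341 CPM in IHCs and 5398 and 5748 CPM in OHCs, with Myo6, a motor of the stereocilia base, at 2604 and 2426 CPM and 2177 and 2658 CPM. From bulk samples, fewer cells of a type and less RNA per cell cannot be told apart. Here and throughout, a pair of values follows the order IHC 74 and 75, OHC 21 and 22, OHC (P7) 15 and 14, and SC 12 and 11.

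At a false discovery rate (FDR) under 0.05 by edgeR's quasi-likelihood F-test, 247 genes differed, which is 1.46% of those tested. Of these, 165 (0.977%) were higher in IHCs and 82 (0.485%) were higher in OHCs. The median log2 fold change, IHCs minus OHCs, was 7.69 among the first (range 2.05 to 13.63) and -5.65 among the second (range -2.33 to -12.68), against 0.03 over all genes tested. In every one of the 247 the lower library of one cell type exceeded the higher of the other, as was the case for 24.1% (toward IHCs) and 18.6% (toward OHCs) of all genes tested. Of the 165, 16 had no count in either OHC library, and of the 82, 2 had none in either IHC library. Without OHC library 21 the counts were 39 and 41, and without OHC library 22 they were 212 and 169. Without IHC library 74 they were 187 and 52, and without IHC library 75 they were 180 and 52. With the count files of the other 6 libraries taken as attached to their records, edgeR called 0 genes, with 1608 at an unadjusted p under 0.05 (2559 with the files put right). With the files put right, DESeq2 called 2020 and limma-voom called 299.

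Slc26a5, which encodes prestin, was the gene with the smallest p. It stood at 3789 and 2749 CPM in OHCs and 1.31 and 0.859 CPM in IHCs, a log2 fold change of -11.55 ± 0.90 (SE, n = 2 and 2, FDR = 0.000926). The YFP that was used to pick OHCs is fused to this gene's product, so its level was also part of the selection. Ocm, which encodes the calcium buffer oncomodulin, stood at 7562 and 9278 CPM in OHCs and 239 and 68.6 CPM in IHCs (-5.77 ± 0.69, FDR = 0.00368). Strc encodes stereocilin, which joins the OHC bundle to the tectorial membrane, and measured 4185 and 1878 CPM in OHCs and 143 and 134 CPM in IHCs (-4.45 ± 0.54, FDR = 0.00413), with exons shared with Ckmt1 in the annotation, so that reads of the pair cannot be fully separated. In mm9 these genes lie at chr5:21316473-21371422 (Slc26a5, minus strand), chr5:144780673-144787539 (Ocm, minus strand) and chr2:121189464-121212904 (Strc, minus strand). The OHC values of each exceeded the IHC values with no overlap.

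Of the 10 OHC markers, 7 were called, all of them higher in OHCs, beside 0.485% of all genes. Lbh, a transcriptional cofactor, measured 1588 and 1834 CPM in OHCs and 2.56 and 6.19 CPM in IHCs (-8.61 ± 0.83, FDR = 0.00101). Ikzf2, which encodes the Ikaros family factor Helios, measured 502 and 491 CPM and 9.46 and 24.2 CPM (-4.88 ± 0.97, FDR = 0.0349). Its FDR over the leave-one-out fits ran from 0.0374 to 0.111 and was 0.111 without IHC library 74 and 0.0732 without OHC library 21. Also called were Chrna10 and Kcnn2, both of the efferent synapse and given with it. Among the 3 not called were Aqp11 (506 and 289.9 CPM in OHCs and 1.41 and 24.4 CPM in IHCs, FDR = 0.0641) and Bcl11b (FDR = 0.862).

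The 15 genes with the smallest p among those called higher in OHCs, with libraries that did not overlap and 20 CPM or more in both OHC libraries, were Slc26a5, Chrna10, Fam40b, Lmod3, Ryr1, Lpin2, Lbh, Faim2, Cacng5, Tmem229a, Ocm, Strc, Atp8a2, Dytn and Dnm3. Each was also called in every one of the 4 leave-one-out fits. Ryr1, the calcium release channel best known from the sarcoplasmic reticulum of skeletal muscle, measured 390.9 and 95.2 CPM in OHCs and 3 counts in all in IHCs, a ratio of 3739 (95% exact Poisson interval 1279 to 18129). Lmod3, an actin filament nucleator known from muscle, measured 558 and 344 CPM in OHCs and 0.135 and 0.172 CPM in IHCs (-11.48 ± 1.07, FDR = 0.00101). Sri, which encodes the calcium-binding regulator of ryanodine receptors sorcin, measured 845 and 729.7 CPM in OHCs and 35.3 and 35.9 CPM in IHCs (-4.47 ± 0.63, FDR = 0.00869). Both OHC libraries lay above both IHC libraries in all 3. Cacng5, of the gamma subunit family that accompanies AMPA receptors, stood at 204 and 168 CPM against 0.202 and 0.103 CPM (-10.21 ± 1.13, FDR = 0.00219). Lpin2, a phosphatidate phosphatase, stood at 3702 and 2729 CPM against 141 and 166 CPM (-4.39 ± 0.42, FDR = 0.00101). Fam40b, also named Strip2, was well expressed in both, at 2517 and 2121 CPM against 115 and 92.8 CPM (-4.48 ± 0.40, FDR = 0.00101). Its level in OHCs was about the same in the immature OHC libraries (2722 and 2583 CPM at P7).

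The remaining 5 of the 15 covered membrane and cytoskeletal proteins. Faim2, an inhibitor of Fas-triggered cell death, measured 1001 and 457 CPM in OHCs and 4.01 and 2.41 CPM in IHCs. Tmem229a, a membrane protein, measured 1822 and 1616 CPM and 40.6 and 26.5 CPM. Dnm3, a dynamin, measured 1969 and 933 CPM and 17.8 and 23.6 CPM. In each of these the OHC libraries lay far above the IHC libraries. Atp8a2, a phospholipid flippase, stood at 199.8 and 185 CPM and 0.674 and 1.17 CPM. Dytn, of the dystrotelin family, stood at 3754 and 2211 CPM and 204 and 205 CPM, the smallest log2 fold change of the 15 (-3.87 ± 0.48, FDR = 0.00426). Dnm3, Atp8a2 and Ryr1 share exons with other annotated genes, as do 48 of the 247 called genes.

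**Figure D1:**
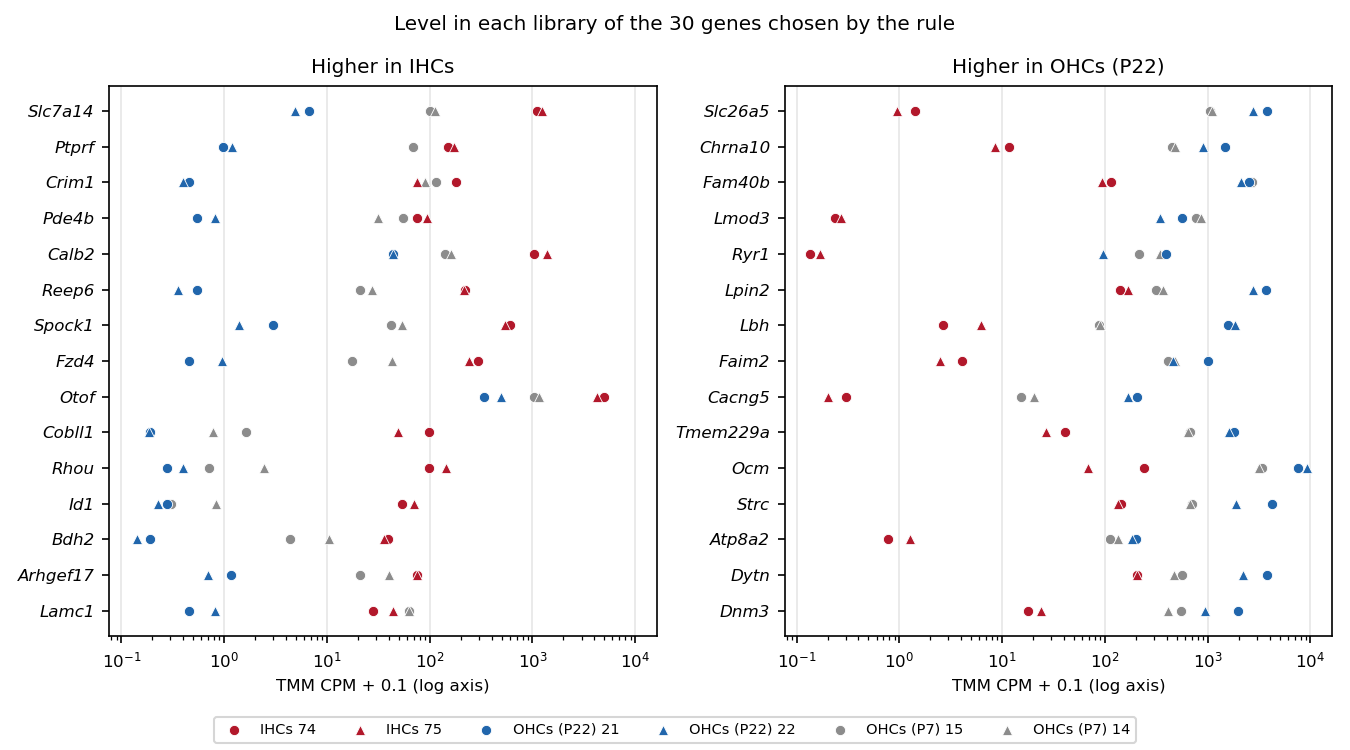
Level in each library (TMM CPM + 0.1, log axis) of the 15 genes by the rule in each direction, with points for the IHC, OHC (P22) and OHC (P7) libraries. In every row the points of the IHC libraries and of the OHC (P22) libraries do not overlap, which the rule required. Slc26a5 lies at 1.31 and 0.859 CPM in IHCs against 3789 and 2749 CPM in OHCs (P22), and Slc7a14 at 1117 and 1248 CPM against 6.52 and 4.80 CPM.

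Several other genes higher in OHCs are given here that were chosen after their values were seen. Bmp3, which encodes a bone morphogenetic protein, was at 436 and 277 CPM in OHCs and 0.236 and 0.103 CPM in IHCs (FDR = 0.0092). Elovl2, an elongase of very long polyunsaturated fatty acids, was at 531 and 248 CPM and 0.101 and 0.0687 CPM (FDR = 0.0193). Pfkfb2, which makes and breaks down an activator of glycolysis, was at 1508 and 1149 CPM and 97.1 and 51.1 CPM (FDR = 0.0105). These calls held in all 4 leave-one-out fits. C1ql1, a secreted C1q-like protein of synapses, was at 295 and 169 CPM against 0.101 and 0.0344 CPM (FDR = 0.0256, leave-one-out range 0.0255 to 0.0965, 0.0965 without OHC library 21). Tmem38a, a cation channel of the sarcoplasmic reticulum, was at 133 and 170.4 CPM against 1.52 and 0.962 CPM (FDR = 0.0174, leave-one-out range 0.0252 to 0.0663, 0.0663 without IHC library 75). The most abundant of these was Lmo7, of the apical junctions, at 7884 and 5485 CPM against 1276 and 757 CPM (FDR = 0.0262, leave-one-out range 0.0195 to 0.0992, 0.0992 without IHC library 75 and 0.0726 without OHC library 21). In all 6 the OHC libraries lay above the IHC libraries.

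Slc7a14, a member of the cationic amino acid transporter family, was the gene higher in IHCs with the smallest p. It measured 1117 and 1248 CPM in IHCs and 6.52 and 4.80 CPM in OHCs (7.71 ± 0.70, FDR = 0.00101). Otof encodes otoferlin, the calcium sensor of vesicle release at the ribbon synapse, and was among the 10 most abundant genes of both IHC libraries, at 5009.9 and 4216 CPM against 338 and 490.2 CPM in OHCs (3.48 ± 0.43, FDR = 0.00413). Calb2, which encodes the calcium buffer calretinin, measured 1044 and 1369.9 CPM in IHCs and 43.6 and 44.1 CPM in OHCs (4.78 ± 0.50, FDR = 0.00144). In mm9 they lie at chr3:31101832-31209300 (Slc7a14, minus strand), chr5:30669351-30764305 (Otof, minus strand) and chr8:112661402-112692110 (Calb2, minus strand). The libraries of the cell types did not overlap for any of them, and all 3 calls held in the 4 leave-one-out fits.

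In all, 5 of the 8 IHC markers tested were called, each higher in IHCs, beside 0.977% of all genes, and 3 of them without OHC library 21. Atp2a3, a calcium pump of the endoplasmic reticulum, measured 1289 and 1548 CPM in IHCs and 1.76 and 4.97 CPM in OHCs (8.70 ± 1.29, FDR = 0.0105), with a leave-one-out range of 0.00466 to 0.056, 0.056 without OHC library 21. Tbx2, a T-box transcription factor, measured 272 and 198 CPM and 3.44 and 0.632 CPM (6.87 ± 1.34, FDR = 0.0372). The FDR of Tbx2 ran from 0.0484 to 0.0936 over the leave-one-outs and was 0.0936 without IHC library 74, 0.0721 without OHC library 21 and 0.0703 without OHC library 22. Slc17a8, which encodes the vesicular glutamate transporter VGLUT3, did not pass: it stood at 1907 and 1762 CPM in IHCs and 52.5 and 35.4 CPM in OHCs, with no overlap, at an FDR of 0.0944 (5.38 ± 1.37). The SE of Slc17a8 was 1.37 log2 units in the fit of all 10 libraries, against 0.43 for Otof. Neither 4930506M07Rik (Shtn1, 64.1 and 59.2 CPM and 5.20 and 1.64 CPM) nor Dnajc5b was called.

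The other rule genes higher in IHCs were Ptprf, Crim1, Pde4b, Reep6, Spock1, Fzd4, Cobll1, Rhou, Id1, Bdh2, Arhgef17 and Lamc1, and all were called in each leave-one-out fit. Spock1, a proteoglycan of the extracellular matrix, was the most abundant, at 608 and 540.1 CPM in IHCs and 2.91 and 1.31 CPM in OHCs (8.10 ± 0.90, FDR = 0.00219). Fzd4, a receptor of the Wnt pathway, measured 295 and 239.9 CPM and 0.353 and 0.842 CPM (8.75 ± 0.99, FDR = 0.00254). Reep6, a shaping protein of the endoplasmic reticulum, measured 222 and 215 CPM and 0.441 and 0.253 CPM (9.32 ± 0.99, FDR = 0.00154). Each of these 3 was at under 3 CPM in OHCs. Ptprf, a receptor phosphatase, measured 149 and 172 CPM and 0.882 and 1.09 CPM, Pde4b, a cyclic AMP phosphodiesterase, 75.7 and 93.7 CPM and 0.441 and 0.716 CPM, and Crim1, a membrane protein that binds bone morphogenetic proteins, 179.5 and 75.3 CPM and 0.353 and 0.295 CPM. Id1, an inhibitor of basic helix-loop-helix factors, measured 54.1 and 69.5 CPM and 0.176 and 0.126 CPM (8.67 ± 1.14, FDR = 0.00683). Cobll1 and Bdh2 had 3 and 2 counts in all in OHCs, for IHC-to-OHC ratios of 860.0 (95% exact Poisson interval 294 to 4170.4) and 654 (95% exact Poisson interval 181 to 5401). Crim1 and Cobll1 share exons with Fez2 and Gm13594.

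Some further genes were picked out after their values were seen. Igfbp5, which encodes a secreted protein that binds insulin-like growth factors, was among the 10 most abundant genes of both IHC libraries, at 8049 and 7688 CPM against 35.1 and 113 CPM in OHCs (6.73 ± 0.98, FDR = 0.0105). The 2 SC libraries held 1467 and 4411 CPM of it. Kifap3, a subunit of the kinesin-2 motor, measured 1100.0 and 1352 CPM in IHCs and 110.2 and 44.1 CPM in OHCs (FDR = 0.0122). Fam65c measured 501 and 406 CPM and 0.265 and 1.43 CPM (FDR = 0.0201, leave-one-out range 0.0139 to 0.0622, 0.0622 without OHC library 21). Syne1, which encodes nesprin-1 of the nuclear envelope, measured 410.3 and 423 CPM and 2.20 and 1.56 CPM (FDR = 0.0276, leave-one-out range 0.0281 to 0.112, 0.112 without OHC library 21 and 0.066 without OHC library 22). Fam65c and Syne1 were under 0.2 CPM in all 4 libraries of OHCs (P7) and SCs.

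The 2 directions differed in how the called genes stood in SCs, the supporting cells with the tdTomato reporter (libraries 12 and 11, P27 and P26). Of the 165 genes higher in IHCs, 110 (66.7%) had a mean level in SCs at or above that in IHCs, 29 (17.6%) had one under 0.1 of it, and 26 lay between. Of the 4077 tested genes whose libraries separated toward IHCs, 45.6% were at or above and 18.2% were under 0.1 of the IHC level. Of the 82 genes higher in OHCs, 0 had a mean level in SCs at or above that in OHCs and 64 (78%) were under 0.1 of it, against 16.1% and 32.5% of the 3142 tested genes that separated toward OHCs. The median ratio of the SC mean to the mean of the higher HC type was 1.90 for the 165 and 0.0065 for the 82, with 0.856 and 0.279 over the separated genes. Of the 165, 59 were also called by limma-voom and 40 with the 4 libraries alone, and of the 82, 68 and 41 were. Among the 15 rule genes higher in IHCs, Slc7a14, Calb2, Otof and Reep6 were under 0.1 of the IHC level in SCs (4.44 and 2.63 CPM, 0.622 and 0.478 CPM, 0.622 and 0.637 CPM and 28.3 and 11.3 CPM), while 7 were at or above the IHC level. Lamc1, a laminin chain, is one of those 7, at 27.9 and 43.6 CPM in IHCs, 0.353 and 0.716 CPM in OHCs and 187 and 189.6 CPM in SCs, and Rhou, a small GTPase, is another, at 99.2 and 144 CPM, 0.176 and 0.295 CPM and 468 and 339.6 CPM. By limma-voom neither Lamc1 nor Rhou was called, and Lamc1 was also not called with the 4 libraries alone. The titles of the SC libraries follow another form than those of the IHC and OHC (P22) libraries, and no label names a batch. Any difference in preparation between them cannot be told apart from that of cell type.

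**Figure D2:**
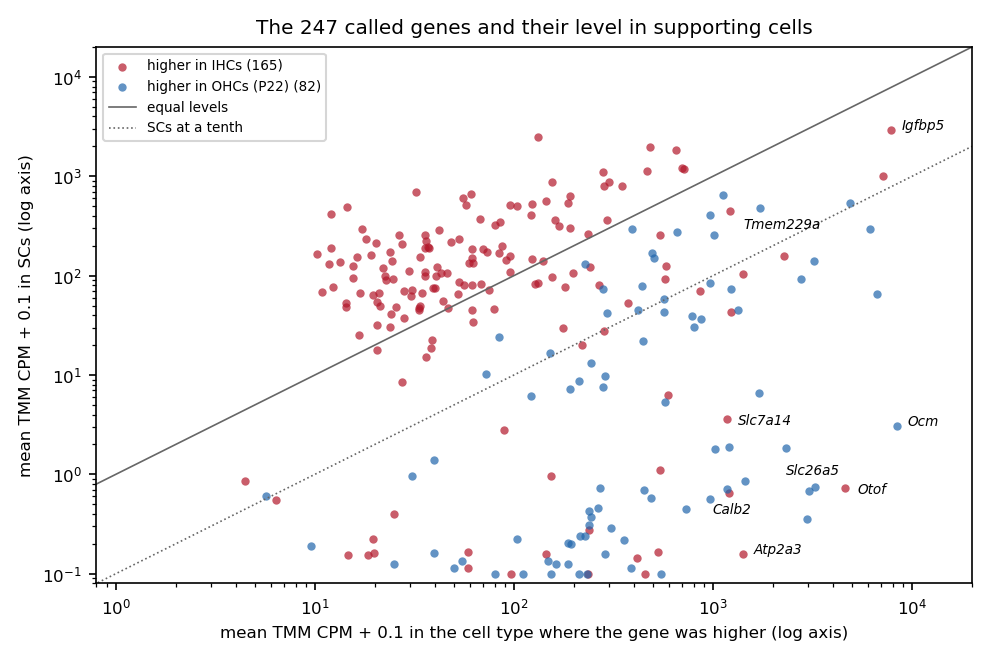
Each of the 247 called genes by its mean level in the HC type where it was higher (x axis, TMM CPM + 0.1, log) and its mean level in SCs (y axis, same scale), coloured by direction, with lines for equal levels and for SCs at 0.1 of the level in HCs. Of the genes higher in IHCs 110 of 165 lie on or above the line of equal levels, and of the genes higher in OHCs 0 of 82 do.

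The SC markers lay higher in IHCs as a list, and markers of other cell types are given further below. Of the 12 SC markers, 5 were called and all were higher in IHCs, beside 0.977% of all genes: Sox9, Gjb2, Jag1, Hes1 and Hey2. DESeq2 called 9 of the 12 higher in IHCs and limma-voom called 0. All 12 had a positive log2 fold change (median 6.32), against a median of 0.03 over all genes. Their summed level was 1176 and 938 CPM in IHCs, 23.2 and 10.7 CPM in OHCs and 1888 and 2592 CPM in SCs. Gjb2, which encodes the gap junction protein connexin 26, made up the largest share in IHCs, at 611 and 468 CPM against 0.793 and 0.379 CPM in OHCs and 124 and 393 CPM in SCs (9.88 ± 1.76, FDR = 0.0252). Sox2, a defining factor of SCs, was at 14.6 and 8.80 CPM in IHCs and had no count in OHCs, at least 59.9-fold higher in IHCs (FDR = 0.0952), and was at 77.5 and 77.1 CPM in SCs. Sox9, of the same family, was at 96.0 and 64.5 CPM in IHCs and 1.23 and 0.0842 CPM in OHCs (7.02 ± 1.39, FDR = 0.0345). Fgfr3, which drove the Cre of the SC libraries, was at 17.3 and 0 CPM in IHC libraries 74 and 75 and 4.41 and 1.90 CPM in OHCs. Without IHC library 74 its log2 fold change was -9.37 in favour of OHCs. The only IHC library left then had no count, so the size of that change is not a measured one.

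The number of SC markers called rested on single libraries: without OHC library 21 or without OHC library 22 it was 1 of 12. The FDR of Gjb2 was 0.107 without OHC library 21 and 0.0668 without OHC library 22 (leave-one-out range 0.00936 to 0.107), that of Sox9 was 0.0601 without OHC library 22 (range 0.0203 to 0.0601), that of Jag1 was 0.0732 without OHC library 21 (range 0.0123 to 0.0732), that of Hes1 was 0.0643 without IHC library 75, 0.207 without OHC library 21 and 0.106 without OHC library 22 (range 0.0264 to 0.207) and that of Hey2 was 0.18 without OHC library 21 and 0.0793 without OHC library 22 (range 0.0274 to 0.18). The part of SC RNA in the genes higher in IHCs was not tested.

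The 10 genes that dissociation is known to induce all had a positive log2 fold change, and 5 were called higher in IHCs, beside 0.977% of all genes: Fos, Jun, Junb, Egr1 and Ier2. DESeq2 called 8 of the 10 higher in IHCs and limma-voom called 1. The sum of the 10 was 533 and 2245 CPM in IHC libraries 74 and 75, 21.6 and 14.5 CPM in OHCs and 1623 and 6058 CPM in SC libraries 12 and 11. The immediate early gene Egr1 accounted for much of the gap between the IHC libraries, at 166 and 1134 CPM against 9.96 and 1.35 CPM in OHCs (6.86 ± 1.22, FDR = 0.0252). Jun measured 201 and 401 CPM in IHCs and 4.50 and 4.97 CPM in OHCs (5.99 ± 0.85, FDR = 0.00886). Without OHC library 21 only 1 of the 10 was called. The FDR was then 0.0502 for Jun (leave-one-out range 0.00299 to 0.0502), 0.114 for Junb (range 0.0255 to 0.114) and 0.0919 for Ier2 (range 0.00327 to 0.0919), while that of Fos was 0.059 without OHC library 21 and 0.0504 without OHC library 22 (range 0.00367 to 0.059).

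Of the glia and Schwann cell markers, 1 of 5 was called, Sox10, at 69.3 and 99.7 CPM in IHCs, 0.0882 and 0.126 CPM in OHCs and 190.2 and 148 CPM in SCs, with an FDR of 0.034 that was 0.174 without OHC library 21 and 0.0842 without OHC library 22 (leave-one-out range 0.0181 to 0.174). The list summed to 116 and 226 CPM in IHCs and 82.6 and 21.02 CPM in OHCs. By edgeR 0 of the 6 neuron markers tested were called, with 1 at an unadjusted p under 0.05 and 0 by DESeq2 and by limma-voom. The neuron list summed to 383 and 530 CPM in IHCs and 130 and 78.4 CPM in OHCs, with a median log2 fold change of 2.34. In 3 of the 6 the libraries separated toward IHCs and in 0 toward OHCs, against 24.1% and 18.6% of all genes tested. Nefl and Nefm, neurofilament genes, were at 115 and 358 CPM and 163 and 94.7 CPM in IHCs and at 19.0 and 33.1 CPM and 96.5 and 39.2 CPM in OHCs, while Prph, Gap43 and Tubb3 were at no more than 2 CPM in all 4 libraries. The blood cell list summed to 43.9 and 28.1 CPM in IHCs and 28.5 and 7.16 CPM in OHCs, and the macrophage list to 0 and 9.07 CPM and 0 and 7.50 CPM, with C1qa, C1qc and Cx3cr1 at 0 in all 4. The mesenchyme list summed to 18.7 and 88.6 CPM and 20.8 and 11.0 CPM. For these 3 lists edgeR called 0 genes, with 1, 0 and 1 at an unadjusted p under 0.05, the same counts by DESeq2 and 0 by limma-voom. Xist stood at 841 CPM in OHC library 22, the library labelled f, and at no more than 1.18 CPM in the other 3, labelled m, while the Y-linked Eif2s3y had 122 and 80.0 CPM in IHCs and 125 and 0.168 CPM in OHCs.

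**Figure D3:**
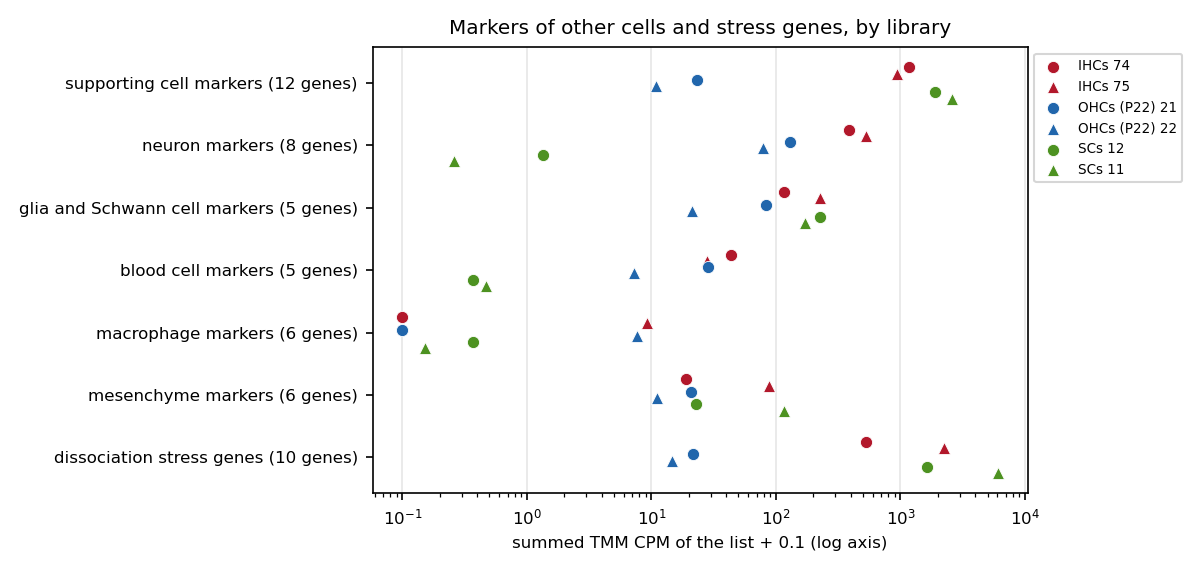
Summed level of each marker list of other cells and of the dissociation genes (TMM CPM + 0.1, log axis), with 1 point per library of IHCs, OHCs (P22) and SCs. The SC markers sum to 1176 and 938 CPM in the IHC libraries, between 23.2 and 10.7 CPM in OHCs (P22) and 1888 and 2592 CPM in SCs.

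Of 30 genes of the ribbon synapse and vesicle release, 3 were called, all higher in IHCs (0.977% of all genes), and the median log2 fold change of the 30 was 0.13. Beside Otof these were Rims2, a scaffold of the active zone, at 129.7 and 178 CPM in IHCs and 0.882 and 4.42 CPM in OHCs (5.83 ± 1.01, FDR = 0.0214), and the priming factor Unc13b, at 37.9 and 6.01 CPM and 0.176 and 0 CPM, where 2 counts in OHCs gave a ratio of 388 (95% exact Poisson interval 107 to 3201) and an FDR of 0.0477. The FDR of Rims2 was 0.0774 without OHC library 21 (leave-one-out range 0.015 to 0.0774) and that of Unc13b was 0.0859 without IHC library 74, 0.0896 without OHC library 21 and 0.094 without OHC library 22 (range 0.019 to 0.094). Unc13b was at 185 and 52.5 CPM in SCs. Without OHC library 21, 1 of the 30 was called. Components that both HC types share were not called: Ctbp2, whose product includes the ribbon protein RIBEYE, was at 38.8 and 103 CPM in IHCs and 112 and 74.97 CPM in OHCs (-0.40 ± 0.80), Bsn at 23.7 and 9.86 CPM and 48.9 and 68.6 CPM (-1.81 ± 1.32), and Snap25 at 219 and 308 CPM and 270.0 and 208 CPM (0.14 ± 0.59). Ctbp2 and Snap25 overlapped between the cell types, and Bsn was higher in both OHC libraries.

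Among the 12 genes of the presynaptic calcium channel and its binding proteins, edgeR called 0, with 2 at an unadjusted p under 0.05, 1 by DESeq2 and 1 by limma-voom. Cacna1d encodes the pore of the Cav1.3 channel that opens vesicle release in IHCs, and its level was 374 and 271 CPM in IHCs and 3346 and 1263 CPM in OHCs (-2.84 ± 1.17, FDR = 0.288). Both OHC libraries thus lay above both IHC libraries. Cabp2, a calcium-binding partner of that channel, was at 469 and 408 CPM and 370.0 and 302 CPM (0.38 ± 1.44). Cacna2d2, an auxiliary subunit, ran the other way, at 71.7 and 29.5 CPM in IHCs and 1.15 and 3.29 CPM in OHCs (4.50 ± 1.15, FDR = 0.0944).

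Of the 5 efferent synapse genes, 3 were called and all were higher in OHCs, beside 0.485% of all genes. Chrna10, a subunit of the acetylcholine receptor, measured 1466 and 894 CPM in OHCs and 11.5 and 8.39 CPM in IHCs (-6.89 ± 0.61, FDR = 0.00101). Its partner subunit Chrna9 measured 405 and 134 CPM and 7.14 and 17.8 CPM (-4.43 ± 0.71, FDR = 0.0161), with an FDR of 0.0549 without IHC library 74 (leave-one-out range 0.00537 to 0.0549). Kcnn2, which encodes the calcium-activated potassium channel SK2, measured 228 and 203 CPM and 15.7 and 6.15 CPM (-4.30 ± 0.80, FDR = 0.0303), and its FDR was 0.0549 without IHC library 74, 0.161 without IHC library 75 and 0.085 without OHC library 21 (range 0.0365 to 0.161). Without IHC library 74, Chrna10 was the only one of the 5 called. The OHC libraries lay above the IHC libraries in all 3, with no overlap. Chrna1, the muscle-type receptor subunit, stood at 145 and 62.3 CPM in IHCs and 1.32 and 8.21 CPM in OHCs (4.43 ± 1.24, FDR = 0.124), and Rapsn, which clusters that receptor, stood at 0.0337 and 0.137 CPM and 0.0882 and 0.0842 CPM.

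Potassium channel subunits split evenly, with 10 of the 20 tested on each side of 0. Beside Kcnn2, 1 was called: Kcnj16, an inward rectifier of epithelia, at 434 and 531 CPM in IHCs, 0.793 and 0.8 CPM in OHCs and 1871 and 2061 CPM in SCs (9.23 ± 1.97, FDR = 0.0465), with an FDR of 0.228 without OHC library 21 and 0.107 without OHC library 22 (leave-one-out range 0.0188 to 0.228). Kcnma1, the large-conductance BK channel of IHCs, was at 187 and 350.5 CPM in IHCs and 479 and 162 CPM in OHCs (-0.25 ± 0.75), and its accessory subunit Lrrc52 at 232 and 158 CPM and 227 and 70.5 CPM (0.39 ± 1.15). Neither separated the cell types. Kcnj13, another inward rectifier, was at 0 and 1.92 CPM in IHCs and 114 and 58.7 CPM in OHCs (-6.48 ± 1.87, FDR = 0.13).

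The mechanotransduction and tip link genes showed 0 calls of 16 by edgeR, with 6 at an unadjusted p under 0.05, 3 by DESeq2 and 3 by limma-voom. Their median log2 fold change was -0.87. Tmc1, a pore-forming subunit of the channel, was at 249 and 184 CPM in IHCs and 1302 and 898 CPM in OHCs (-2.35 ± 0.99, FDR = 0.299), and Loxhd1 at 344 and 376 CPM and 1693 and 949.7 CPM (-1.88 ± 0.51, FDR = 0.111). Pcdh15, the lower part of the tip link, was at 189 and 184 CPM and 171 and 168 CPM (0.14 ± 0.54), and Cdh23, the upper part, at 441 and 423 CPM and 1692 and 641 CPM (-1.43 ± 0.61). OHC libraries were thus above IHC libraries for Tmc1, Loxhd1 and Cdh23, without passing the test.

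Of 30 genes of hair bundle structure, 2 were called higher in OHCs, Strc among them, and 1 higher in IHCs, Espnl, beside 0.485% and 0.977% of all genes. Espnl, an espin-like actin bundler, was low in both mature types, at 7.54 and 1.20 CPM in IHCs and 0 and 0.0421 CPM in OHCs, where 1 count gave a ratio of 155 (95% exact Poisson interval 27.7 to 6106) and an FDR of 0.0193 (0.0841 without OHC library 21, leave-one-out range 0.00189 to 0.0841). At P7 it stood at 647 and 785 CPM in OHCs. Myo15, the motor that carries growth factors of the stereocilia to their tips, was the most abundant bundle gene in OHCs, at 988 and 768 CPM in IHCs and 7602 and 3470.0 CPM in OHCs (-2.66 ± 0.70, FDR = 0.104). Triobp, of the rootlets, was at 561 and 488 CPM and 3478 and 1376 CPM (-2.21 ± 0.60, FDR = 0.112), and Ptprq at 1534 and 1366 CPM and 1422 and 1364 CPM (0.06 ± 0.32).

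Calcium buffers, pumps and exchangers held calls in both directions, 3 of 17 in IHCs and 2 of 17 in OHCs, beside 0.977% and 0.485% of all genes. Beside Calb2 and Atp2a3, Calm2, a calmodulin gene and among the 10 most abundant genes of both IHC libraries, was at 7316 and 6943 CPM in IHCs and 1472 and 1966 CPM in OHCs (2.05 ± 0.33, FDR = 0.0161), the smallest log2 fold change of the 165 genes. Its paralog Calm3 was at 98.4 and 118 CPM and 100.4 and 170.2 CPM (-0.33 ± 0.51). Ocm and Sri were the calls on the OHC side. Atp2b2, the plasma membrane calcium pump of the OHC bundle, was at 86.5 and 73.1 CPM in IHCs and 3026 and 1362 CPM in OHCs (-4.78 ± 1.11, FDR = 0.0678), with no overlap, and did not pass. Calb1, which encodes calbindin, was at 0.202 and 0 CPM in IHCs and 0.529 and 23.9 CPM in OHCs, while the OHC libraries at P7 held 2201 and 2138 CPM.

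Among 34 tested transcription factors of HC identity, 4 were called, beside 1.46% of all genes. Tbx2 and Sall2 were higher in IHCs, and Ikzf2 and Six2 were higher in OHCs. Six2, a homeobox factor, measured 597 and 540.0 CPM in OHCs and 5.52 and 30.6 CPM in IHCs (-4.98 ± 0.97, FDR = 0.034). Sall2, a zinc finger factor, measured 252 and 121 CPM in IHCs, 0.97 and 3.50 CPM in OHCs and 691 and 390.3 CPM in SCs (6.36 ± 1.01, FDR = 0.0158). The FDR of Six2 was 0.0644 without IHC library 74 and 0.0717 without OHC library 21 (leave-one-out range 0.0138 to 0.0717) and that of Sall2 was 0.0721 without OHC library 21 (range 0.0047 to 0.0721), and without OHC library 21 neither direction held a call. Pou4f3, needed for the survival of HCs, was at 404 and 420.4 CPM in IHCs and 484 and 559.7 CPM in OHCs (-0.34 ± 0.43), and Gfi1, a repressor of neuronal genes in HCs, at 312 and 268 CPM and 203 and 440.4 CPM (-0.15 ± 0.88). Isl1, a LIM-homeobox factor, was at 77.4 and 25.7 CPM in IHCs, 281 and 236 CPM in OHCs and 18.6 and 48.9 CPM in OHCs at P7 (-2.33 ± 0.72, FDR = 0.16). Rorb, an orphan nuclear receptor, was the most abundant of the list in IHCs, at 1277 and 1918 CPM against 595 and 654 CPM (1.36 ± 0.60). Atoh1 had no count in any of the 4 libraries.

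**Figure D4:**
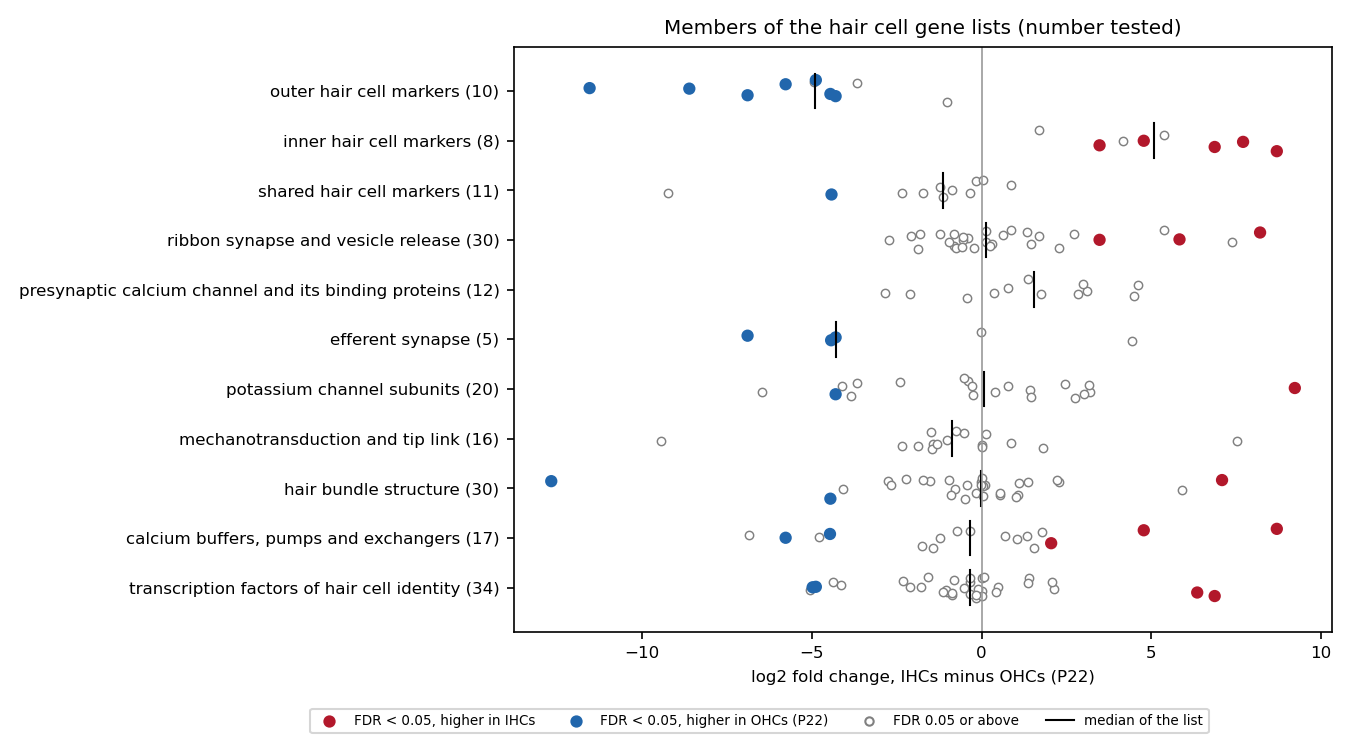
Log2 fold change, IHCs minus OHCs (P22), of each tested member of the HC gene lists, with filled points at an FDR under 0.05. The OHC markers lie left of 0 (median -4.92) and the IHC markers right of it (median 5.08), while the ribbon synapse list is centred near 0 (median 0.13).

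Promoters are shown for 3 genes higher in OHCs and 1 higher in IHCs, because Ikzf2 and Tbx2, which encode DNA-binding factors, were called in opposite directions. Slc26a5, Chrna10 and Slc7a14 were the first genes of their direction with a promoter on record, and Strc was added by choice outside that order. The windows are the 250 bases before the start site, 5′ to 3′ on the strand of the gene, from RefSeq (GRCm38.p6), and all 4 genes lie on the minus strand: chr5:21865605-21865854 for Slc26a5, chr2:121380941-121381190 for Strc, chr7:102116714-102116963 for Chrna10 and chr3:31310320-31310569 for Slc7a14. Capitals mark a match on either strand to the T-box core, GGTGTGA, or to the Ikaros core, 6 letters that are shown in Slc26a5 and Chrna10 as read on the opposite strand.
Slc26a5: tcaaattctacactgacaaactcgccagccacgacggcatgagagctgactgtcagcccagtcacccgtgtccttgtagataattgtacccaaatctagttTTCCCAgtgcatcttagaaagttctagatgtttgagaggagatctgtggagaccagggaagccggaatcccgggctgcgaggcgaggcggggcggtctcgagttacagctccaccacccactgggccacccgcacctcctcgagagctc
Strc: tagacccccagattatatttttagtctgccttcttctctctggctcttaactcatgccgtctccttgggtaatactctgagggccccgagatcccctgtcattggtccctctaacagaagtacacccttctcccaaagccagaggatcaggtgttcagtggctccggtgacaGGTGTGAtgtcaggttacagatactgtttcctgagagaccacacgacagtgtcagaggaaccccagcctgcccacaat
Chrna10: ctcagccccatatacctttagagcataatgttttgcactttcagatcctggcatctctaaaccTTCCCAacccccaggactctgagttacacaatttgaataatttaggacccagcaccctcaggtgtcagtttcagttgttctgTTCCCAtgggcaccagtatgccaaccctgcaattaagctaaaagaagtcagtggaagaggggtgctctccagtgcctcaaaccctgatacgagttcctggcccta
Slc7a14: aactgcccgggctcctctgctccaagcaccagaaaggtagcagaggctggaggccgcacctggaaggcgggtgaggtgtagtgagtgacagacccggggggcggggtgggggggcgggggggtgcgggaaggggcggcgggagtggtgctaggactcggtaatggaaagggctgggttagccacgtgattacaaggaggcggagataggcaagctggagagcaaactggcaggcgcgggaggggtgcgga
The Ikaros core (TGGGAA) was found at -149 in Slc26a5 and at -187 and -105 in Chrna10, each on the other strand, the T-box core at -78 in Strc, and neither in Slc7a14, counting from the base before the start site as -1. The Ikaros core occurred in 21.6% of all 32851 promoters, in 24.7% of those of the genes higher in IHCs and in 23.8% of those of the genes higher in OHCs. The T-box core occurred in 3.33%, 3.61% and 5% in the same order. Of the called genes, 113 of 165 and 57 of 82 were matched, with 166 and 80 promoters. Among the 15 genes by the rule in each direction, the Ikaros core occurred in 5 of 14 promoters (35.7%) on the OHC side and 3 of 12 (25%) on the IHC side, and the T-box core in 3 of 14 (21.4%, in Dnm3, Strc and Tmem229a) and 0 of 12. A match is a run of letters and no evidence of binding.

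The immature OHC libraries (OHCs (P7), libraries 15 and 14) carry the prestin-YFP genotype in the labels, whereas the study's supplement gives a tamoxifen-induced Cre under the control of prestin with the tdTomato reporter, and which of these holds was not settled. They are set beside the mature ones by value only, since both comparisons share the IHC libraries. The titles of the P7 libraries also follow another form than those of the mature libraries, and no label names a batch. Age cannot be told apart from any difference in preparation. IHCs and OHCs (P7) differed in 64 genes (0.379% of those tested), 22 (0.13%) higher in IHCs and 42 (0.249%) higher in OHCs (P7). Of the 165 genes higher in IHCs than in mature OHCs, 119 (72.1%) were also above both P7 libraries in both IHC libraries, against 52.2% of the 4077 genes that separated toward IHCs and 23.6% of all genes tested. Of the 82 higher in mature OHCs, 61 (74.4%) were above both P7 libraries in both mature OHC libraries, against 55.2% of the 3142 genes that separated toward OHCs and 19.8% of all genes tested. Slc26a5 was at 1061 and 1094 CPM at P7 and 3789 and 2749 CPM at P22. Ocm was at 3400.2 and 3160.3 CPM and 7562 and 9278 CPM. Lbh was at 86.9 and 89.0 CPM and 1588 and 1834 CPM. For each of these the mature libraries were the higher. Lmod3 was at 770.4 and 863 CPM at P7 and 558 and 344 CPM at P22, and Ikzf2 at 463 and 482 CPM and 502 and 491 CPM. On the IHC side, Slc7a14 was at 100.4 and 113 CPM, Calb2 at 142 and 160.1 CPM and Otof at 1036 and 1145 CPM in OHCs (P7), above the mature OHCs and below the IHCs in every library. Crim1 was at 114 and 89.4 CPM and Ptprf at 69.2 and 161 CPM at P7, against 0.353 and 0.295 CPM and 0.882 and 1.09 CPM in mature OHCs.

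**Figure D5:**
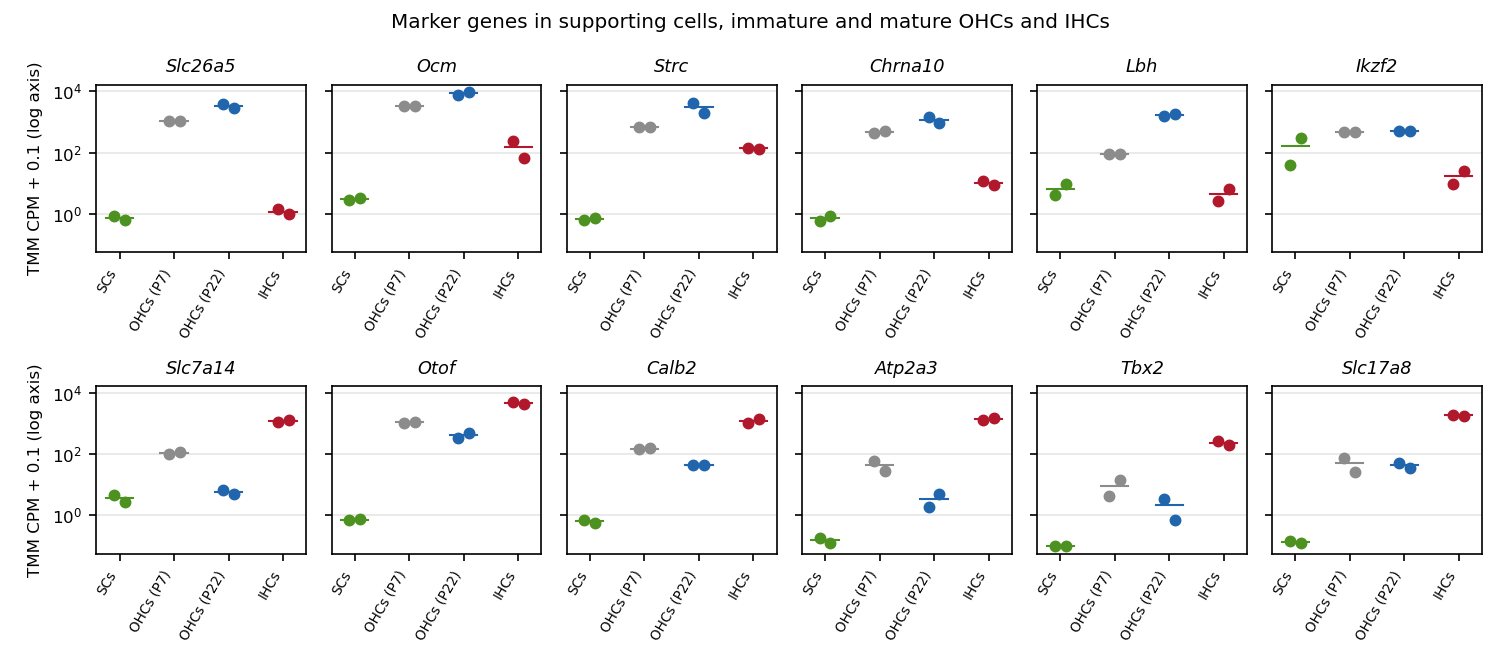
Level of marker genes (TMM CPM + 0.1, log axis) in SCs, OHCs (P7), OHCs (P22) and IHCs, with 1 point per library and a panel per gene. Slc26a5 goes from 1061 and 1094 CPM at P7 to 3789 and 2749 CPM at P22 and lies at 1.31 and 0.859 CPM in IHCs, while Otof is highest in IHCs at 5009.9 and 4216 CPM.

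Lists of genes used by every cell were also counted. Of 77 cytosolic ribosomal protein genes edgeR called 0, with 5 at an unadjusted p under 0.05, 2 by DESeq2 and 0 by limma-voom, and the median log2 fold change was 0.54, with 69 of 77 positive. The IHC libraries lay above the OHC libraries with no overlap in 38 of the 77 and below them in 2, against 24.1% and 18.6% of all genes tested. The median of this list was positive under every alternative, from 0.43 to 0.79, and was 0.79 without OHC library 22, where the median of all genes was 0.53. Of 76 oxidative phosphorylation genes edgeR called 0, with 1 at an unadjusted p under 0.05, 1 by DESeq2 and 0 by limma-voom, and the median was -0.03, with 38 positive and 38 negative and 15 separated in each direction. The sign of this median changed with the method, from -0.12 with RLE factors to 0.06 with limma-voom. Pvalb, whose locus carries the Cre used to pick IHCs, was at 62.1 and 42.9 CPM in IHCs and 91.4 and 153 CPM in OHCs (-1.22 ± 0.52, FDR = 0.308), higher in both OHC libraries.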

How the data were processed

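Total RNA of handpicked cells was amplified by single primer isothermal amplification and sequenced from both ends. Per the labels and the study's methods, the authors used CASAVA 1.7, Cutadapt, STAR, BWA and HTSeq with the mouse mm9 genome, and they deposited raw counts of reads per gene, without normalization. Whether counting used strand is not given in the sources used here. Nothing upstream of the deposited counts was repeated. Groups came from the sample titles. Of the 10 sample records 4 carried the count file of another library. The file of each library was settled by its constant ratio to that library's column of CPM values in the study's supplement (coefficient of variation under 1% over genes with at least 10 counts), and these columns were used for nothing else.

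Genes were tested with edgeR 4.0.16 (R 4.3.3): TMM, filterByExpr with the cell type as group, and the quasi-likelihood F-test with the legacy option, in 1 model of 10 libraries and 5 cell types, 2-sided, with p values adjusted by Benjamini and Hochberg's method over 16891 genes at a threshold of 0.05. The common dispersion was 1.12. An SE is the absolute log2 fold change over the root of the F statistic. The 4 compared libraries held 19483713 to 27301979 counts. Where labels do not say that libraries came from separate animals, p values measure the spread between libraries of a cell type. That spread was estimated from all 10 libraries of the model. An exact permutation test of 2 against 2 libraries cannot reach the threshold and was not used.

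Named genes were, for each direction, the 15 with the smallest p among called genes with libraries that did not overlap and at least 20 CPM in both libraries of the higher type, the called members and defining markers of the gene lists with up to 4 abundant examples a list, Slc26a5, Pvalb and the sex-linked genes. Genes outside this rule are named as such where they appear, and further members of the lists given as examples were chosen after their values were seen. Some genes of the lists are not reported here by name. The members and lists were chosen with earlier results of these data known. Alternatives were DESeq2 1.42.0, limma 3.58.1 with voom (the method the study names), RLE factors, 3 other filters, the 4 libraries alone, the files as attached, leaving out each library and, added after seeing the data, edgeR's newer quasi-likelihood method. Coordinates are of GENCODE on mm9, and promoters of RefSeq on GRCm38.p6. Python 3.11.15, pandas 2.3.3, numpy 2.4.6 and matplotlib 3.10.9 were used for summaries and figures.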

Additional observations from a re-analysis of the deposited data

How the results depend on the processing

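The number of genes called (247, of which 165 were higher in IHCs) changed with the method. DESeq2 gave 2020 (1133 higher in IHCs and 887 in OHCs), no filter gave 1156 (765 higher in IHCs), and each held all 247. A filter of more than 35 CPM in 2 libraries gave 432 (295 and 137), at least 10 counts in each of the 4 libraries left 8672 genes and gave 114 (60 and 54), and the 4 libraries alone gave 117 (67 and 50). The numbers were 299 (131 and 168) with limma-voom, of which 127 were among the 247, 346 (184 and 162) with edgeR's newer method, added after seeing the data, and 246 (158 and 88) with RLE factors. The files as attached to the records gave 0, and DESeq2 and limma-voom were not run on them. The share of calls higher in IHCs was 66.8%, and 43.8% with limma-voom, 56.1% with DESeq2 and 53.2% with the newer method. The cause was not tested. Leaving out 1 library gave 80 to 381 genes: 80 (39 and 41) without OHC library 21 and 381 (212 and 169) without OHC library 22, where the median log2 fold change of all genes moved to 0.53.

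All 30 genes of the rule were called in each leave-one-out fit and with DESeq2, RLE factors, no filter, more than 35 CPM and the newer method, 27 with limma-voom and with the 4 libraries alone, 18 of the 18 that passed at least 10 counts, and 0 with the files as attached. Of the 55 called genes of the rule and lists, 26 were called under every alternative except the attached files and 21 were lost in a leave-one-out fit, as were 15 of 20 further genes checked outside the rule. Fgfr3 changed sign without IHC library 74 and, uncalled, with limma-voom. Among the genes of the rule and lists that were called in neither fit, 56 changed sign under some alternative, which was not counted as a reversal. The log2 fold change of Fgfr3 ran from -9.37, where the IHC library left had no count, to 2.47 over the leave-one-outs. No paired analysis was possible because the IHCs and OHCs came from different mouse lines at different ages. Depth limits what a gene at 0 can show to 0.102 CPM in IHCs and 0.195 CPM in OHCs.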
